A study of Mus musculus with 21 samples.

Results

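The tumour labelled LCDM-P9 replicate 2 (LCDM-P9-2) carried a set of single-nucleotide variants that differed at most sites from the set shared by the other 7 tumours of the series. Its private calls were selected on the deposited lists alone: a call was private when its chromosome, position, reference base and alternative base occurred in none of the other 7 tumour lists. By this rule 3083 of its 3634 calls were private, out of 15030 distinct sites called in any of the 8 tumours. The calls were then divided by whether they had an identifier in dbSNP, the public catalogue of known mouse variants, and by the fraction of reads that carried the alternative base.

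The study sequenced captured exons of genomic DNA from mouse embryonic stem cells (ESCs), from tumours of mice made from such cells by tetraploid complementation, and from control tissue. In that assay the ESCs form nearly the whole embryo, so a tumour of such a mouse is expected to descend from the injected line. All 21 samples carry the strain label C57BL6X129S6F1, and 18 of them (10 ESC and 8 tumour samples) had a variant list. The series design text names ATAC-seq for the tumours where the title names exome sequencing. These texts alone leave unclear which assay the tumours had, and the account above follows the title. By the deposited annotation, 31.0% of the private calls of LCDM-P9-2 were exonic and 1.91% intergenic.

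Both LCDM-P9 tumours come, per their labels, from ESCs kept in N2B27 medium with feeder cells, 1000 IU LIF, 3 µM Chir99021, 2 µM Dim and 2 µM Mih. The other tumours were 1 from 2iL-P9 (1000 IU LIF, 3 µM Chir99021 and 1 µM PD0325901, with feeders), 1 from 2iL-F-P9 (the same additions without feeders), and 3 from A2iL-P9 and 1 from A2iL-P14 (1000 IU LIF, 3 µM Chir99021 and 1.5 µM CGP77675, with feeders). The labels give no age, sex or tumour type, and they name no normal tissue of the mouse that bore LCDM-P9-2. Whether its private calls were inherited or arose in the cells was therefore not tested.

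An F1 animal of 2 inbred strains has 1 chromosome of each parent strain in every pair. At a site where the parents differ it is heterozygous, and about equal numbers of reads carry each base. A fraction near 1 means that nearly all reads carried the alternative base, as at a homozygous site or where only 1 copy is present. Runs of neighbouring sites in one state are known as haplotype blocks, because nearby variants are passed on together.

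Each tumour list was called against wild-type blood, whereas the control of the ESC lists was a sample labelled MEF. At all 3318 calls that LCDM-P9-2 shared with another tumour the control's read numbers were the same in both lists. The tumour lists therefore share 1 control. The tumour's own read numbers were equal at 5 of those 3318 calls. LCDM-P9-2 is therefore not a copy of another deposited tumour list. The sample name in its header matches its label, but whether the list belongs to the labelled tumour was not tested. The header names of the 2iL-P9 and 2iL-F-P9 lists differ from their labels and are not explained, so these tumours are named by the file record alone and may be exchanged. Its median depth over all calls was 39 reads, beside 28 to 38 in the other 7.

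A few sites where a private call fell just before a gene's start show the kinds of calls in sequence. The private calls touched the RefSeq promoter windows (GRCm38.p6, 250 bases before to 50 bases after the start) of 31 genes, at 37 positions, and the reference base of the list matched RefSeq in all 39 pairs of call and promoter. Of these 37 calls, 21 had a fraction over 0.9 and 2 had no dbSNP identifier. The stretches below hold 29 bases on the gene's own strand, and the capital marks the called base at position 15, counted from the 5′ end.
Olfr225 (chr11:59612846-59612874, plus strand): tacagttaaaatatTgatgatgtggtgaa
Acsf2 (chr11:94601808-94601836, minus strand): taattaccctcgccTcgttcactttcaaa
Gimap6 (chr6:48708255-48708283, minus strand): cctaggctgtaagcGgaagtgactggctt
Aptx (chr4:40703200-40703228, minus strand): tgctaggcagccgtTtgtgacgtcatctc
The first pair were known variants with only the alternative base read. The change T15A, 106 bases before the start of the odorant receptor gene Olfr225, was seen in 20 of 20 reads. The change T15C, 36 bases before Acsf2, an acyl-CoA synthetase gene, was seen in 16 of 16 reads. The change G15A, 25 bases before Gimap6, of a family of GTPases of lymphocytes, was a known variant in 7 of 25 reads. The change T15A, 20 bases before Aptx, which encodes the DNA repair protein aprataxin, had no identifier and was seen in 7 of 58 reads. These 4 sites show, in order, calls with nearly pure alternative base, a mixed known variant and a rare change with no entry in the catalogue. No motif was searched in these windows.

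LCDM-P9-2 had far fewer calls than the other tumours and far more private ones. The other 7 lists held 9752 to 10325 calls each. Private calls made up 84.8% of its list, against 1.59% in 2iL-P9, 1.16%, 1.17% and 1.33% in the 3 A2iL-P9 tumours, 1.18% in A2iL-P14, 1.36% in the other LCDM-P9 tumour and 0.933% in 2iL-F-P9. The numbers of private calls in those 7 were 91 to 164. These shares describe what the selection did and were not tested. Next to the limit of the rule, 33 calls of LCDM-P9-2 occurred in exactly 1 other tumour and 20 in exactly 2, while 368 occurred in all 7.

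The reverse comparison gave the same picture. Of the 7639 sites called in all 7 other tumours, 368 were called in LCDM-P9-2, which is 4.82% (95% Wilson interval 4.36 to 5.32%). For each other tumour the equivalent share, of sites called in the remaining 6 of those 7, was 96.9 to 98.8%. The other LCDM-P9 tumour, with the same medium and P number on its label, stood at 97.2%. Of its 3634 calls, 17 (0.468%) occurred in any of the 10 ESC lists, against 125 to 148 (1.28 to 1.47%) of the longer lists of the other tumours. Of its private calls, 3 occurred in an ESC list, beside 2 to 8 in the much shorter private lists of the others. The ESC lists had another control (MEF), and the filters behind them are not given in the sources used here. These values were therefore not compared further.

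Most private calls were known variants, and about equal reads or nearly pure alternative reads were seen at most of those. Of the 3083 private calls, 2928 had a dbSNP identifier. Among these, 1571 (53.7%, interval 51.8 to 55.5%) had a fraction over 0.9, and 1064 of them had no reference read at all. Among calls with at least 20 reads the share over 0.9 was 48.9%, so it was not a majority there. A further 886 (30.3%) lay at 0.35 to 0.65, 389 (13.3%) lay under 0.35, and 82 (2.80%) lay between 0.65 and 0.9. The values nearest the upper limit were 0.905 (1 call) above it and 0.9 (7 calls) at it. In the other 7 tumours 8 to 30 calls of a whole list exceeded 0.9, at most 0.306% of it. The median depth was 32 reads for calls over 0.9 and 52 reads for calls at 0.35 to 0.65. Some calls rest on few reads, as the lowest depths of these classes were 2 and 5 reads. The 82 calls between the classes had a median depth of 9 reads.

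**Figure D1:**
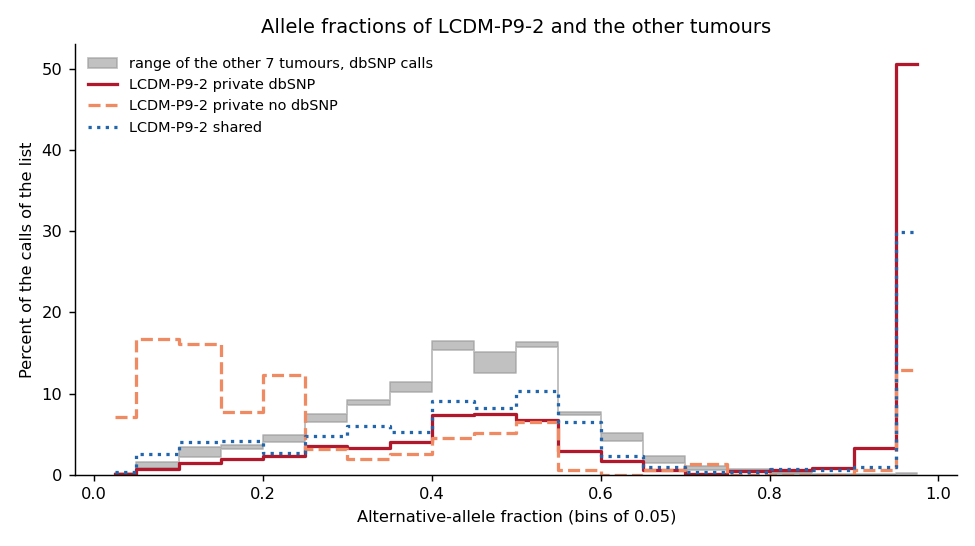
Distribution of alternative-allele fractions, in bins of 0.05 (horizontal axis), as a percent of each set of calls (vertical axis). Lines are the private dbSNP, private non-dbSNP and shared calls of LCDM-P9-2, and the grey band is the range of the dbSNP calls of the other 7 tumours; a peak near 1 stands out only in LCDM-P9-2, where 53.7% of private dbSNP calls exceeded 0.9.

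The 155 private calls without an identifier had another make-up. Of these, 101 (65.2%) lay under 0.35, 30 (19.4%) at 0.35 to 0.65, 21 (13.5%) over 0.9 and 3 between. The median fraction of the low group was 0.122, at a median depth of 76 reads. The other tumours had 20 to 49 private calls of this low, unlisted kind. Transitions, the exchanges between A and G or between C and T, made up 52.5% of the low unlisted calls and 73.1% of the known calls over 0.9. Among coding calls the low unlisted set changed the protein in 30 of 42 (71.4%, interval 56.4 to 82.8%), against 159 of 494 (32.2%, 28.2 to 36.4%) for known calls over 0.9. Of the 101 low unlisted calls, 26 lay in segmental duplications or repeats.

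The control had no alternative read at most private sites. It held at least 1 alternative read at 13.2% of the private calls (interval 12.1 to 14.5%) and at 38.7% of the shared calls of LCDM-P9-2 (34.7 to 42.8%). The highest control fraction at a private call was 0.063, and 0.077 in the lists of the other tumours. The lists were called against this control by limits that are not given. A low control fraction may therefore be a condition of being listed. In the whole list the share was 17.1%, beside 37.4 to 38.2% in the other tumours.

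Transition share, protein-changing share and median depth were computed over whole lists. In LCDM-P9-2, 3083 of the 3634 calls behind them are the selected private calls, so the values describe that list and are no independent support for its difference. Over all calls, transitions made up 71.5% in LCDM-P9-2 and 72.9 ± 0.144% in the others (mean ± SD, n = 7). Protein-changing calls were 34.2% of its coding calls and 29.5 ± 0.204% of those of the others, and median depth was 39 against 31.6 ± 3.69 reads. In each of these 3 comparisons LCDM-P9-2 lay outside the range of the other 7. With 1 library against 7 an exact two-sided permutation test has 8 arrangements, so its smallest p is 1 in 8, which each of the 3 reached and which cannot pass a threshold of 0.05, with or without adjustment over the 6 comparisons made. Among dbSNP calls alone the shares were 72.4 against 73.2 ± 0.0933% for transitions and 32.0 against 28.5 ± 0.172% for protein change, again at the smallest p of the exact permutation test. For median depth of dbSNP calls, 38 against 31.1 ± 3.98 reads, 2iL-P9 had the same median of 38 and the exact permutation p was 0.25. The test sees only the spread between single tumours, since no tumour was sequenced more than once. The other 7 lists, of 9752 to 10325 calls each, have 7639 sites in common. Their SDs are therefore not the spread of 7 independent sets of calls, and the gaps cannot be judged in SDs. For dbSNP calls, the protein-changing share of LCDM-P9-2 had a Wilson interval of 29.1 to 35.0%, beside shares of 28.2 to 28.8% in the others. That interval takes neighbouring calls as independent and is too narrow.

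The private calls were spread unevenly over the genome. Chromosomes 11 (647), 19 (464), 18 (316), 3 (311) and 15 (246) held 1984 of them, 64.4%. Chromosomes 9, 10 and 12 together had 15 calls of any kind, although the other 7 tumours had 1099 common sites there, of which LCDM-P9-2 had 1. Counted in bins of 5 Mb from the first base of each chromosome, the 10 richest bins held 1618 private calls (52.5%), and 185 of 529 bins held at least 1. The like shares for the calls of the other tumours are not given here. Whether the private calls were more crowded than those was therefore not tested. In 27 bins with 197 private calls, none of the other 7 tumours had any call.

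**Figure D2:**
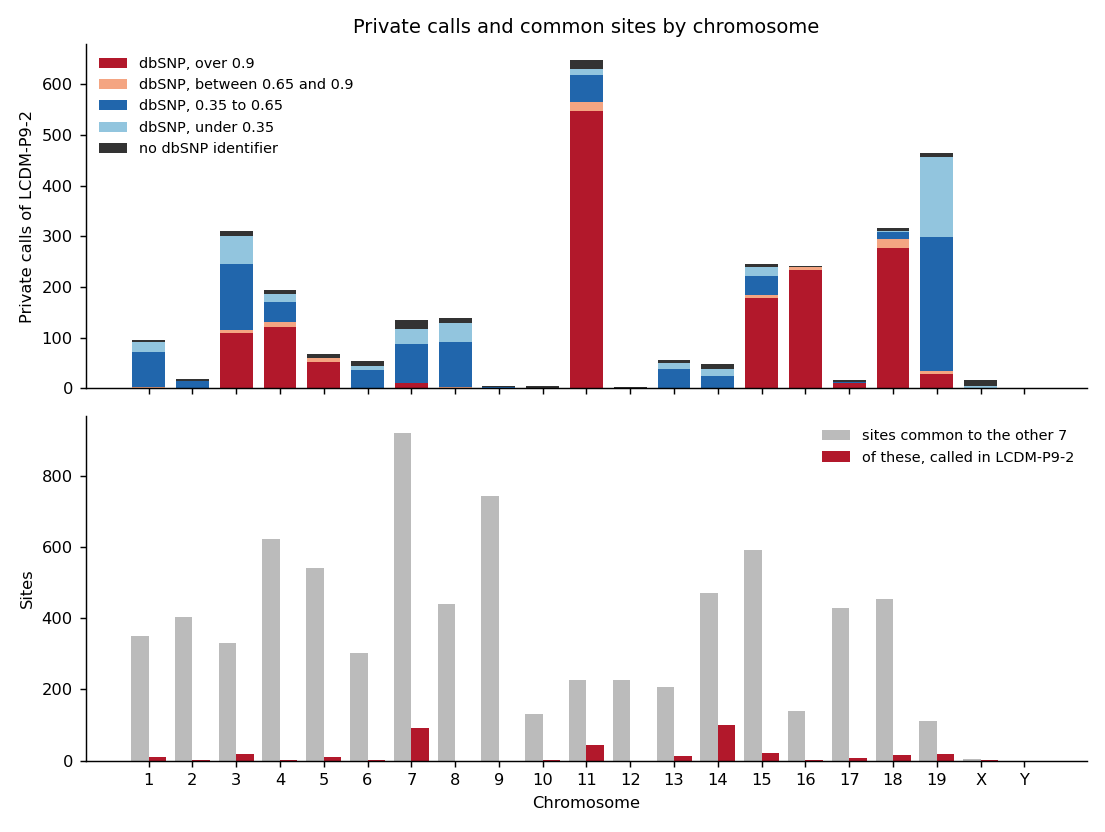
Upper panel: number of private calls of LCDM-P9-2 on each chromosome, stacked by dbSNP identifier and fraction class. Lower panel: sites common to the other 7 tumours (grey) and those of them called in LCDM-P9-2 (red); chromosome 11 had 647 private calls, and chromosome 9 had 742 common sites of which 0 were found.

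Homozygous and heterozygous calls lay mostly in separate runs. The dbSNP calls of LCDM-P9-2 over 0.9 or at 0.35 to 0.65 were read in order along each chromosome, whatever the distance between them. Calls of other fractions were passed over. Of the 1741 calls over 0.9, 98.7% lay in 14 unbroken runs of at least 10 calls, and of the 1114 calls at 0.35 to 0.65, 97.9% lay in 16 such runs. The longest runs were 282 calls at 0.35 to 0.65 on chr19:11989361-47975515 and 281 calls over 0.9 on chr11:83013564-94481747. On chromosome 16 all 234 dbSNP calls of these 2 classes exceeded 0.9, and on chromosome 8 none did. A run is thus not an evenly covered block. The chromosome 19 run had 1 call in chr19:10000001-15000000, a homozygous bin as defined below, and no call in the next 5 Mb. Its other calls lay from position 22692878 on. On chromosome 16, 230 of the 234 lay in chr16:10000001-15000000.

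The bins were then given a state. A bin with at least 5 dbSNP calls of these 2 classes was called homozygous when at least 80% of them exceeded 0.9, heterozygous when at least 80% lay at 0.35 to 0.65, and mixed otherwise. By this rule 28 bins on 10 chromosomes were homozygous, 40 on 11 chromosomes were heterozygous and 3 were mixed. A further 156 bins were empty, meaning that LCDM-P9-2 had no call of any kind where the other 7 shared at least 5 sites. Another 51 bins had 1 to 4 calls of the 2 classes, 79 had other calls only, and 172 had no call and too few common sites to judge. The homozygous and heterozygous bins together, 68 of 529, held 1518 and 1208 private calls. The 345 known private calls under 0.35 in heterozygous bins made up 88.7% of that class, and only 2 lay in homozygous bins. The limit of 0.35 cuts through the fractions of heterozygous bins: in chr19:20000001-25000000, 115 of 284 calls lay under it. The place of the low known calls is therefore no independent support for the blocks. Of the 101 unlisted low calls, 69 lay in bins with no known call of the 2 classes.

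**Figure D3:**
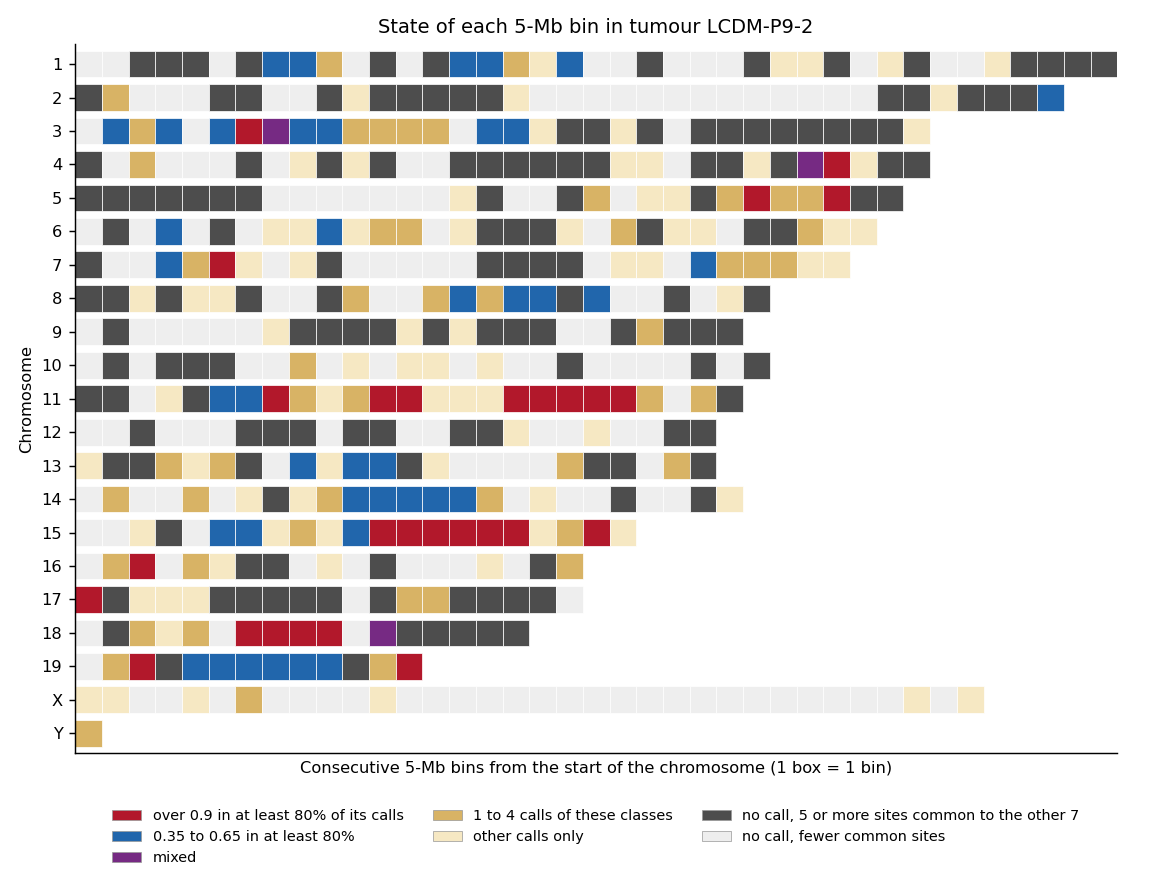
State of every 5-Mb bin of LCDM-P9-2, with chromosomes as rows and bins in order along each row. Red and blue boxes are homozygous (28) and heterozygous (40) bins and dark grey boxes are the 156 empty ones; red and blue form separate blocks, and chromosomes 9, 10 and 12 hold neither.

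Neighbouring homozygous bins formed 4 stretches on chromosomes 11, 15 and 18, of 85 Mb in all. The longest, chr15:55000001-85000000 (30 Mb), held 201 calls, 190 of them known calls over 0.9 and 0 at 0.35 to 0.65. Its private calls lay most often in Tg (31), which encodes thyroglobulin, the protein from which thyroid hormone is made, and in the collagen gene Col22a1 (25). The stretch chr11:80000001-105000000 (25 Mb) held 502 calls, 477 of them over 0.9 and 2 at 0.35 to 0.65. In it, chr11:90000001-95000000 was the richest bin of the genome, with 338 private calls, all between positions 93490783 and 94782553. Spag9, a scaffold for JNK signalling, had 64 of them, Abcc3, an exporter of organic anions, had 46, and the calcium channel gene Cacna1g had 41. The other 7 tumours had 10 to 13 calls in that bin.

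The remaining long homozygous stretches were chr18:30000001-50000000 (20 Mb, 291 known calls over 0.9, 5 at 0.35 to 0.65) and chr11:55000001-65000000 (10 Mb, 125 and 0). The first was led by genes of the clustered protocadherins, described below. The second was led by the unconventional myosin gene Myo15, with 20 private calls. Single homozygous bins could be as rich: chr16:10000001-15000000 had 235 private calls, 229 of them over 0.9. Myh11, the smooth muscle myosin heavy chain, had 66 of these, the most of any gene, at fractions with a median of 1, and Abcc1, a multidrug exporter, had 26. The bin chr3:30000001-35000000 had 78 private calls, 74 of them over 0.9, with Usp13 (21) in the lead, where the other tumours had 0 to 3 calls.

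Heterozygous bins formed 10 stretches of 135 Mb in all. The longest, chr19:20000001-50000000 (30 Mb), held 456 calls, 432 of them private, and no known call in it exceeded 0.9. In the bin chr19:20000001-25000000 there were 297 private calls, led by Smc5 (48), a subunit of the SMC5/6 complex that maintains chromosomes, and also including the cation channel gene Trpm3 (38). The next, chr14:50000001-75000000 (25 Mb), held 172 calls but only 40 private ones. Shorter stretches were chr8:80000001-90000000 with 91 calls, led by the zinc finger gene Zfp423 (18), chr11:25000001-35000000 with 67 calls, led by Eml6 (18), and chr15:25000001-35000000 with 52 calls, led by the dynein gene Dnah5 (21). None of the calls in these 3 stretches that had an identifier exceeded 0.9.

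Within heterozygous bins the fraction varied by place. Over 21 heterozygous bins with at least 20 known calls at or below 0.9 outside duplications and repeats, the median fraction ranged from 0.376 to 0.5. The lowest were chr19:25000001-30000000 (0.376, 24 calls) and chr19:20000001-25000000 (0.392, 284 calls, interquartile range 0.274 to 0.461). The highest was chr11:25000001-30000000 (0.5, 33 calls, 0.442 to 0.539). The ranges of the bins overlapped, and the difference between them was not tested.

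On 6 chromosomes a run of at least 10 calls of one class was followed by such a run of the other. The closest change was on chromosome 4, where the last of 39 calls at 0.35 to 0.65 lay at position 137716448 and the first of 128 calls over 0.9 at 137752457, 36 kb further on. Hspg2, which encodes the basement membrane protein perlecan, had 41 private calls before this point, between positions 137508498 and 137568751, and 0 of them exceeded 0.9. On chromosome 7 a run of 56 calls at 0.35 to 0.65 ended at 19397465 and a run over 0.9 began at 19508735, 111.3 kb away. On chromosome 3 the state changed between 29690312 and 29952574 and changed back between 37458350 and 38950978. On chromosomes 11, 15 and 19 the change lay in gaps of 2.94, 6.85 and 11.3 Mb, and chromosome 7 changed back over a gap of 89.0 Mb. The changes therefore fell inside chromosomes, and whole chromosomes were not all of one kind.

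Read depth relative to the control was lower and more spread in homozygous than in heterozygous bins, which was not tested. The depth of LCDM-P9-2 divided by that of the control, outside duplications and repeats and where the control had at least 10 reads, had a median of 0.909 over 1496 calls in homozygous bins (interquartile range 0.544 to 1.14) and 1 over 1301 calls in heterozygous bins (0.833 to 1.19). On the 14 chromosomes with at least 50 such calls the median ratio ranged from 0.833 (chromosome 4) to 1.13 (chromosome 1). These ratios rest on called sites alone, so they show depth only where LCDM-P9-2 had variants.

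Empty bins formed 32 stretches of 515 Mb in all. The longest were chr3:115000001-155000000 (40 Mb, 156 sites common to the other 7), chr5:1-35000000 (35 Mb, 160 sites), chr4:70000001-100000000 (30 Mb, 89 sites), chr17:25000001-50000000 (25 Mb, 239 sites) and chr18:60000001-85000000 (25 Mb, 177 sites). A list shows no depth where it has no call, so it cannot be told apart whether LCDM-P9-2 matched the reference there or was not covered. All 7639 common sites were accounted for: 3795 lay in empty bins, 645 in homozygous, 957 in heterozygous and 110 in mixed bins, and the rest in bins with few or other calls or in bins too poor to judge.

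The 368 common sites that LCDM-P9-2 did share were clustered too. They fell in 55 of the 363 bins with common sites, and 195 of them (53.0%) lay in 5 bins, while the 5 bins richest in private calls held 1198 of those (38.9%). The bin chr7:115000001-120000000 had 78 of 137, all between positions 118114885 and 118975340, at a median fraction of 0.468 in LCDM-P9-2 and 0.431 to 0.476 in the others. The bin chr14:50000001-55000000 had 46 of 47, at a median of 0.441 beside 0.421 to 0.479. At the found sites of these 2 bins the fractions of LCDM-P9-2 were near those of the other tumours. The chromosome 14 bin had 3 private calls besides. The chromosome 7 bin had 38 and lacked the rest of its common sites, so it was only partly like the others. The bin chr11:80000001-85000000 had 29 of 29, but there its fractions were 0.952 to 1.00 while the medians of the others were 0.407 to 0.614. These sites lay in Acaca, the enzyme of the first step of fatty acid synthesis, in the chemokine gene Ccl5, in Slfn8 and Slfn9 and in 8 other annotated genes. In all, 104 of the 368 shared sites exceeded 0.9 in LCDM-P9-2, and at those sites none of the 728 values of the other tumours did. The same variants were thus homozygous in reads in this tumour and mixed in the others.

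By position in genes, 1864 private calls were intronic (60.5%), 955 exonic (31.0%), 104 in 3′ UTRs, 35 in 5′ UTRs and 17 at splice sites, as the deposited annotation has them. Of the coding calls, 620 were synonymous, 324 missense and 3 stop gains. They touched 716 gene symbols, of which 681 are current RefSeq symbols and 34 more are listed as synonyms. The 327 protein-changing calls lay in 210 genes, 95 with such a call over 0.9 and 65 with one at 0.35 to 0.65. Of the 327, 165 exceeded 0.9.

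The 3 stop gains were of different kinds. In Ccdc36, which encodes a protein of meiotic recombination (chr9, position 108405155), Q445X was a known variant in 34 of 63 reads, with 0 of 51 in the control. A second known call on the neighbouring base, Q445R, was in 35 of 64 reads. The 2 calls alter 1 codon at nearly equal fractions and each was annotated alone, so their joint effect is not given by the list. In Egfr, the epidermal growth factor receptor (chr11, position 16871003, exon 8), S306X had no identifier and was in 25 of 123 reads, with 0 of 119 in the control. A second unlisted coding call lay on the next base, 16871004, at a fraction of 0.205 of 122 reads, and was annotated as not changing the protein. Each of these calls was annotated alone too, so whether they jointly give a stop is not known from the list. In Fam57a (chr11, position 76205280), W78X had no identifier and was in 8 of 94 reads, with 0 of 79 in the control. All 3 were absent from the other 7 lists, by the rule that selected them.

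The genes with most protein-changing calls over 0.9 were led by the clustered protocadherins, cell adhesion molecules whose variable first exons give neurons distinct surface identities. Their 24 genes with private calls held 176, all on chromosome 18, of which 150 exceeded 0.9, 7 lay at 0.35 to 0.65 and 60 changed the protein. The family held 5.87% of the private calls with a gene symbol. The other 7 tumours had 4 common sites in this family, 0.0542% of their common sites with a gene symbol. Pcdhgb1 had 7 protein-changing calls over 0.9, from 0.939 (T749M, 62 of 66 reads) to 1.00 (A371V, 193 of 193 reads). Pcdhga11 and Pcdhga4 had 6 each, Pcdhgb6 had 5, and Pcdhga3, Pcdhga6, Pcdhga7 and Pcdhga9 had 4 each. These genes are close copies whose transcripts are nested in the annotation, so the gene under which a call is listed is uncertain.

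Outside that family, Tg had 6 protein-changing calls over 0.9, all known variants. Among them S681N was in 180 of 184 reads (1 of 163 in the control), D405N in 135 of 136 and R512G in 125 of 127. In all, 8 genes had 4 such calls, and the naming rule took the first of them by symbol, which left out Pcdhga7, Pcdhga9 and Zkscan17. Abcc3 had 4, each without a reference read: K1262E (116 reads), K918R (113), Y22H (56) and I365M (45). Eme1, which encodes a subunit of a structure-specific DNA endonuclease, had 4, from Y174H in 42 of 45 reads to A560V in 115 of 115. Mkl2, a coactivator of serum response factor, had 4, of which N358S and S368G lay in a repeat at 8 and 4 reads. All of these genes lay in homozygous bins.

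At 0.35 to 0.65 the counts per gene were smaller. The gene 4931440F15Rik had 4 protein-changing calls, at fractions from 0.444 to 0.5, all in a segmental duplication. Mamdc2, an extracellular matrix gene of chromosome 19, had 3: V53A in 49 of 104 reads, D343N in 22 of 39 and G194E in 15 of 40. A further 17 genes had 2 each, of which the rule named the first 8 by symbol: 4933402J07Rik, Adgrg1, Catip, Ccdc36, Cyp2c37, Cyp2c65, Cyp2c69 and Dmrt2. In Cyp2c65, which is outside the duplications, G117R was in 70 of 146 reads and H276N in 61 of 146.

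The cytochrome P450 genes, enzymes that oxidise drugs, steroids and fatty acids, had 54 private calls in 14 genes, most of them in the Cyp2c cluster of chromosome 19. Of these calls 39 lay at 0.35 to 0.65, 14 under 0.35 and 1 over 0.9, and 17 changed the protein. The family held 1.8% of the private calls with a gene symbol and 0.271% of the common sites with one. In this family 32 of the 54 lay in segmental duplications or repeats, where reads of one copy can be placed on another. For comparison, 248 of all 3000 private calls with a gene symbol did. The low unlisted calls A178T in Cyp2c40 (14 of 328 reads) and A288T in Cyp2c68 (22 of 299 reads) were in such copies. The call A288T at the same codon number in Cyp2c69 had a fraction of 0.332.

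Zinc finger genes with the prefix Zfp also had 54 private calls in 12 genes, 5 of them protein-changing, for example P138S in Zfp12 (66 of 68 reads). They held 1.8% of the private calls with a gene symbol and 1.08% of the common sites with one. Solute carriers had 40 calls in 13 genes, 27 of them at 0.35 to 0.65. Their shares were 1.33% of the private calls and 1.98% of the common sites. In Slc27a6, a fatty acid transporter, T64A was in 90 of 152 reads and L9F in 51 of 100. In Slc4a9, a bicarbonate transporter, T403A and T576A were in 42 of 42 and 19 of 19 reads. Olfactory receptor genes had 6 private calls (0.2%, against 0.203% of the common sites), 5 without an identifier. Vomeronasal receptor genes had 4 (0.133% against 0.406%), all without one and all under 0.35. Schlafen and NLR genes had 3 private calls (0.1% against 0.582%) and 11 calls in all, and keratin genes had 1 (0.0333% against 0.352%). Natural killer cell receptors, the major histocompatibility complex (prefix H2-) and serpins had 0, while the other 7 tumours had 4, 7 and 5 common sites there. Those make up 0.0542%, 0.0948% and 0.0677% of the common sites with a gene symbol, so counts of 0 among 3000 private calls are near the background.

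Of 45 tumour suppressors and oncogenes listed, 4 had a total of 11 private calls, and 2 of these changed the protein. The list held 0.367% of the private calls with a gene symbol and 0.312% of the common sites of the other 7. In Apc, a suppressor of Wnt signalling, R1895L was a known variant in 78 of 78 reads, in a homozygous bin. The other was S306X in Egfr, annotated without regard to the call on the next base. Of 52 DNA repair and checkpoint genes, 2 had 7 private calls, none protein-changing (0.233%, against 0.935% of the common sites). Of 25 coat colour genes 1 had 1 call, which did not change the protein (0.0333% against 0.284%). Of 32 pluripotency and imprinting genes none had a call, and they held 0.0813% of the common sites. Over all genes, 327 of 3000 private calls with a gene symbol changed the protein.

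The private protein-changing calls without an identifier numbered 42. A stricter set of 23 lay outside duplications and repeats, with a depth of 20 or more, 5 or more alternative reads, and none in the control. Of the 23, 15 lay under 0.35 and 12 of those under 0.15. At the upper end, V55I in Il4, the cytokine of type 2 immunity, was in 25 of 25 reads, with 0 of 36 in the control. V889F in Nrd1, a metalloendopeptidase, was in 176 of 179 reads, with 0 of 178 in the control.

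A second group lay near equal reads. R468Q in the nuclear pore gene Nup88 was in 65 of 124 reads, R226Q in the odorant receptor gene Olfr527 in 84 of 166, and R987L in the matrix gene Fbln2 in 27 of 55. T188M in Chn2 was in 24 of 51, A289V in Sh3d21 in 38 of 90 and G950R in Nsd1, a histone H3 lysine methyltransferase, in 38 of 98. The lowest of the 10 named were V104L in Hnf4a, a liver and gut transcription factor, in 26 of 92 reads, and S306X in Egfr in 25 of 123. The absence of alternative reads in the control was a condition of the set. The fractions thus ranged from 0.203 to 1 in a single library, with no replicate library to check them.

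**Figure D4:**
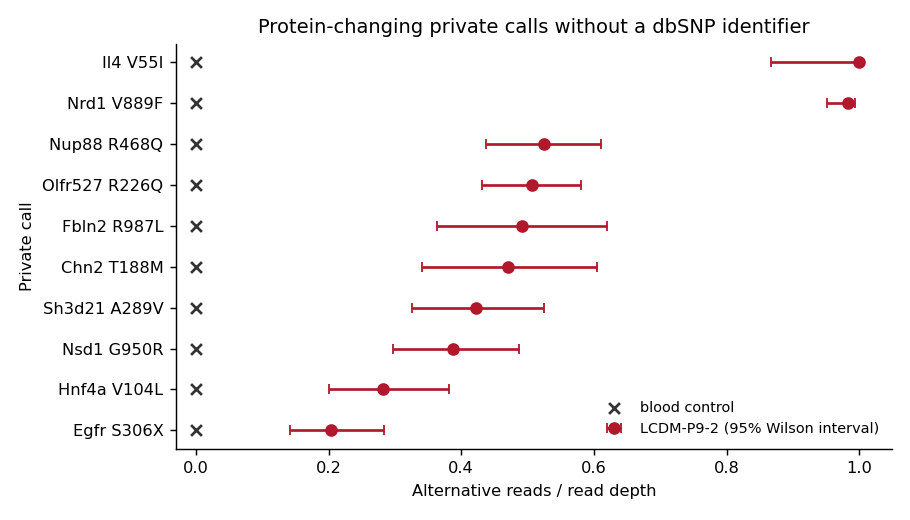
Alternative reads divided by depth (horizontal axis) at the 10 protein-changing private calls without dbSNP identifier that had the highest fraction in the stricter set of 23. Dots are LCDM-P9-2 with 95% Wilson intervals from its reads and crosses are the blood control, which had 0 alternative reads at each by the choice of the set; Il4 and Nrd1 stood near 1 and Egfr, in 25 of 123 reads, was the lowest.

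The sex chromosomes had few calls. Chromosome X had 16 private calls, 11 of them in duplications and 11 without an identifier. At 2 of them nearly all reads carried the change: G26S in Vgll1, a partner of TEAD transcription factors, in 39 of 39 reads, and a synonymous change in the cyclin gene Ccnb3 in 51 of 52. At the 5 calls outside duplications the depth was 0.424 to 0.678 times that of the control. Chromosome Y had 1 call, D343H in the histone demethylase gene Uty, a known variant in 41 of 43 reads, with 15 reads in the control. The other 7 lists had 0 calls on chromosome Y.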

How the data were processed

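The deposited tumour lists hold, per the file headers, 1 line per single-nucleotide variant. Each line gives the reads per allele, base quality, depth and alternative-allele fraction of a tumour and of its blood control. Gene, region, consequence, segmental duplication, repeat and dbSNP annotation are given too. In the ESC lists the control is the MEF sample. Mouse build mm10 and the tools BWA, Picard and SAMtools are named, without versions, per the submitters' processing notes. The caller and its thresholds are not given in the sources used here, and a list shows no site that was not called. Calls were matched by chromosome, position and both bases. Shares carry 95% Wilson intervals over calls. Neighbouring calls lie in runs and are not independent, so these intervals cover counting error only and are too narrow. Intervals of single calls are over reads, which are not independent molecules either. The planned test was an exact two-sided permutation of 1 tumour against 7. Bins, runs and lists were described without a test. Named genes were those with stop gains, the 10 with most protein-changing calls over 0.9 and at 0.35 to 0.65 (ties by symbol), the 10 unlisted protein-changing calls of highest fraction with at least 20 reads, and up to 6 per gene list. Members, rules and lists were chosen with earlier results of these data known. The functions were tested on simulated data. The samples of 2iL-P9 and 2iL-F-P9 were taken from the file record, since the sample names in their headers are not explained by the labels. Python 3.11.15 and pandas 2.3.3 were used.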

Additional observations from a re-analysis of the deposited data

How the results depend on the processing

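Under 5 read, quality, duplication and control filters, matching by position alone and leaving out each other tumour in turn, LCDM-P9-2 kept between 2271 (at least 20 reads) and 3100 private calls, within 1.5 times the reported 3083. Leaving out 1 other tumour gave 3083 to 3100 private calls, 53.6 to 53.8% of known private calls over 0.9, and 4.76 to 4.87% of common sites found. The share of known private calls over 0.9 fell to 48.9% at 20 or more reads and to 50.2% with a limit of 0.95, both outside its interval. That interval takes neighbouring calls as independent and is too narrow to judge such shifts. At 20 or more reads the share was no longer a majority. Mixed bins numbered 1 in bins of 2 Mb, 5 in bins of 10 Mb and 6 when 90% of one class was asked for, and empty bins numbered 260 in bins of 2 Mb and 82 in bins of 10 Mb. These shifts come with the bin size or share itself. Homozygous bins covered 140 Mb as reported, 80 Mb in bins of 2 Mb and 200 Mb in bins of 10 Mb, and heterozygous bins 200, 108 and 290 Mb, so the covered length depends on the bin size although the bin numbers (20 to 40 and 29 to 54) moved less. The differences in transition share, protein-changing share and median depth kept their direction in every setting run. At 20 or more reads the difference in median depth grew from 7.43 to 13.6 reads over all calls and from 6.86 to 12.9 over known calls. For known calls, leaving out 1 other tumour gave an exact permutation p of 0.143 to 0.429. No paired analysis was possible because LCDM-P9-2 is 1 library set against 7 single tumours whose replicate numbers do not pair them with it. One library without a replicate limits every value here, and low fractions at few reads are the least certain.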

Other observations

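Of the 33 calls that LCDM-P9-2 shared with exactly 1 other tumour, 17 were shared with 2iL-F-P9, against 0 to 5 with each of the other 6; this count was looked at after the lists had been seen. The header names leave it unsettled whether the 2iL-F-P9 and 2iL-P9 lists are exchanged, so the tumour named here may be the other of that pair. Of the 17, 15 had a dbSNP identifier and 13 exceeded 0.9 in LCDM-P9-2, where the lowest was 0.98. In 2iL-F-P9 these 13 had fractions of 0.034 to 0.286 with a median of 0.071, on 2 to 6 alternative reads, and they lay on 6 chromosomes. For example, a synonymous call in Tg stood at 0.994 of 174 reads in LCDM-P9-2 and at 0.034 of 174 reads in 2iL-F-P9, and a call in Ccdc39 at 1 and 0.04. Taking every known call of LCDM-P9-2 over 0.9 that another list also holds, 15 of 149 were under 0.15 in 2iL-F-P9, against 1 to 4 of 137 to 144 in each of the others. Of the 13 calls above, 12 were under 0.1 in 2iL-F-P9 and are counted again among these 15. The wider count is therefore not a second, separate observation. What these low fractions come from was not tested.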
